A study of Mus musculus with 60 samples.

Results

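The insulin-like growth factor (IGF) and insulin axis was followed here through 10 genes in primary mouse hepatocytes: the hormone gene Igf1, the carrier genes Igfbp1, Igfbp2, Igfbp3, Igfbp4 and Igfals, the receptor genes Ghr and Insr, and the adaptor genes Irs1 and Irs2. They were taken by symbol from 18194 genes with a probe set of their own, and all 10 were among the 14513 genes that passed an intensity filter. Each gene is represented by its brightest probe set, and 23 probe sets carry these symbols in all. The donors were male C57BL/6N mice aged 8 to 12 weeks, and their hepatocytes went onto collagen in medium with serum, 10 µg/ml insulin and 100 nM dexamethasone. After 4 h of attachment they were kept for 24 h in serum-free medium that still held dexamethasone but listed no insulin. Cells then received 40 ng/ml recombinant mouse hepatocyte growth factor (HGF), 40 ng/ml recombinant human interleukin 6 (IL-6), the combination or nothing. RNA was taken at 0 h (4 unstimulated arrays), early (0.5, 2 and 4 h) and late (8, 16, 24 and 32 h), with 2 arrays for each of the 4 conditions at these 7 hours, which gave 60 arrays. Each preparation came from 1 animal or from a small pool of animals, and the labels do not say which arrays share one, so that p-values measure the spread between arrays, which may be technical.

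Growth hormone acts on the liver through its receptor, encoded by Ghr, and makes hepatocytes the main source of circulating IGF-1. In blood most IGF-1 travels in a complex with IGFBP3 and the acid-labile subunit, encoded by Igfals, while smaller binding proteins such as IGFBP1, IGFBP2 and IGFBP4 carry or hold back the rest. Insulin signals through its receptor and the adaptors IRS1 and IRS2 to AKT, which keeps FOXO transcription factors out of the nucleus. Igfbp1 and Irs2 are textbook FOXO-driven genes that insulin lowers, and IGFBP1 is also released by injured or regenerating liver.

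Values are log2 intensities, so that a difference of 1 is a doubling, and each difference carries the standard error (SE) of a fit over all arrays. A gene was called when limma's F-test over the 7 matched hours had an adjusted p under 0.05, and the hour of its largest difference gives the direction. Arrays of a group correlated at 0.996 to 0.998, and the gap between a member's 2 arrays had a median of 0.04 for Igf1 and 0.13 for Igfbp3. A labelling control set arrays apart. The spiked dap transcript's 3′ minus 5′ signal was 1.22 to 1.48 on 10 arrays, those of unstimulated cells up to 4 h, and 2.62 to 3.24 on all others but one, IL-6 24 h replicate 1 at 3.72. Differences from unstimulated cells up to 4 h therefore crossed 2 labelling classes, while later ones and those between stimuli did not, apart from that array. Beside most early differences stands the class step, which is the unstimulated change from 4 to 8 h minus the mean change of the stimulated arms over the same hours. Its median size over all genes was 0.15 and its 95th percentile 0.50, and a gene's own response enters it too. The hybridisation control bioB from 8 h on lay at 8.04 to 8.31 without a stimulus and at 5.21 to 6.98 with one. Up to 4 h bioB lay at 8.11 to 8.38 without a stimulus and at 5.63 to 8.30 with one, so early stimulated arrays spanned both levels. Its part in the results was not tested.

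**Figure D1:**
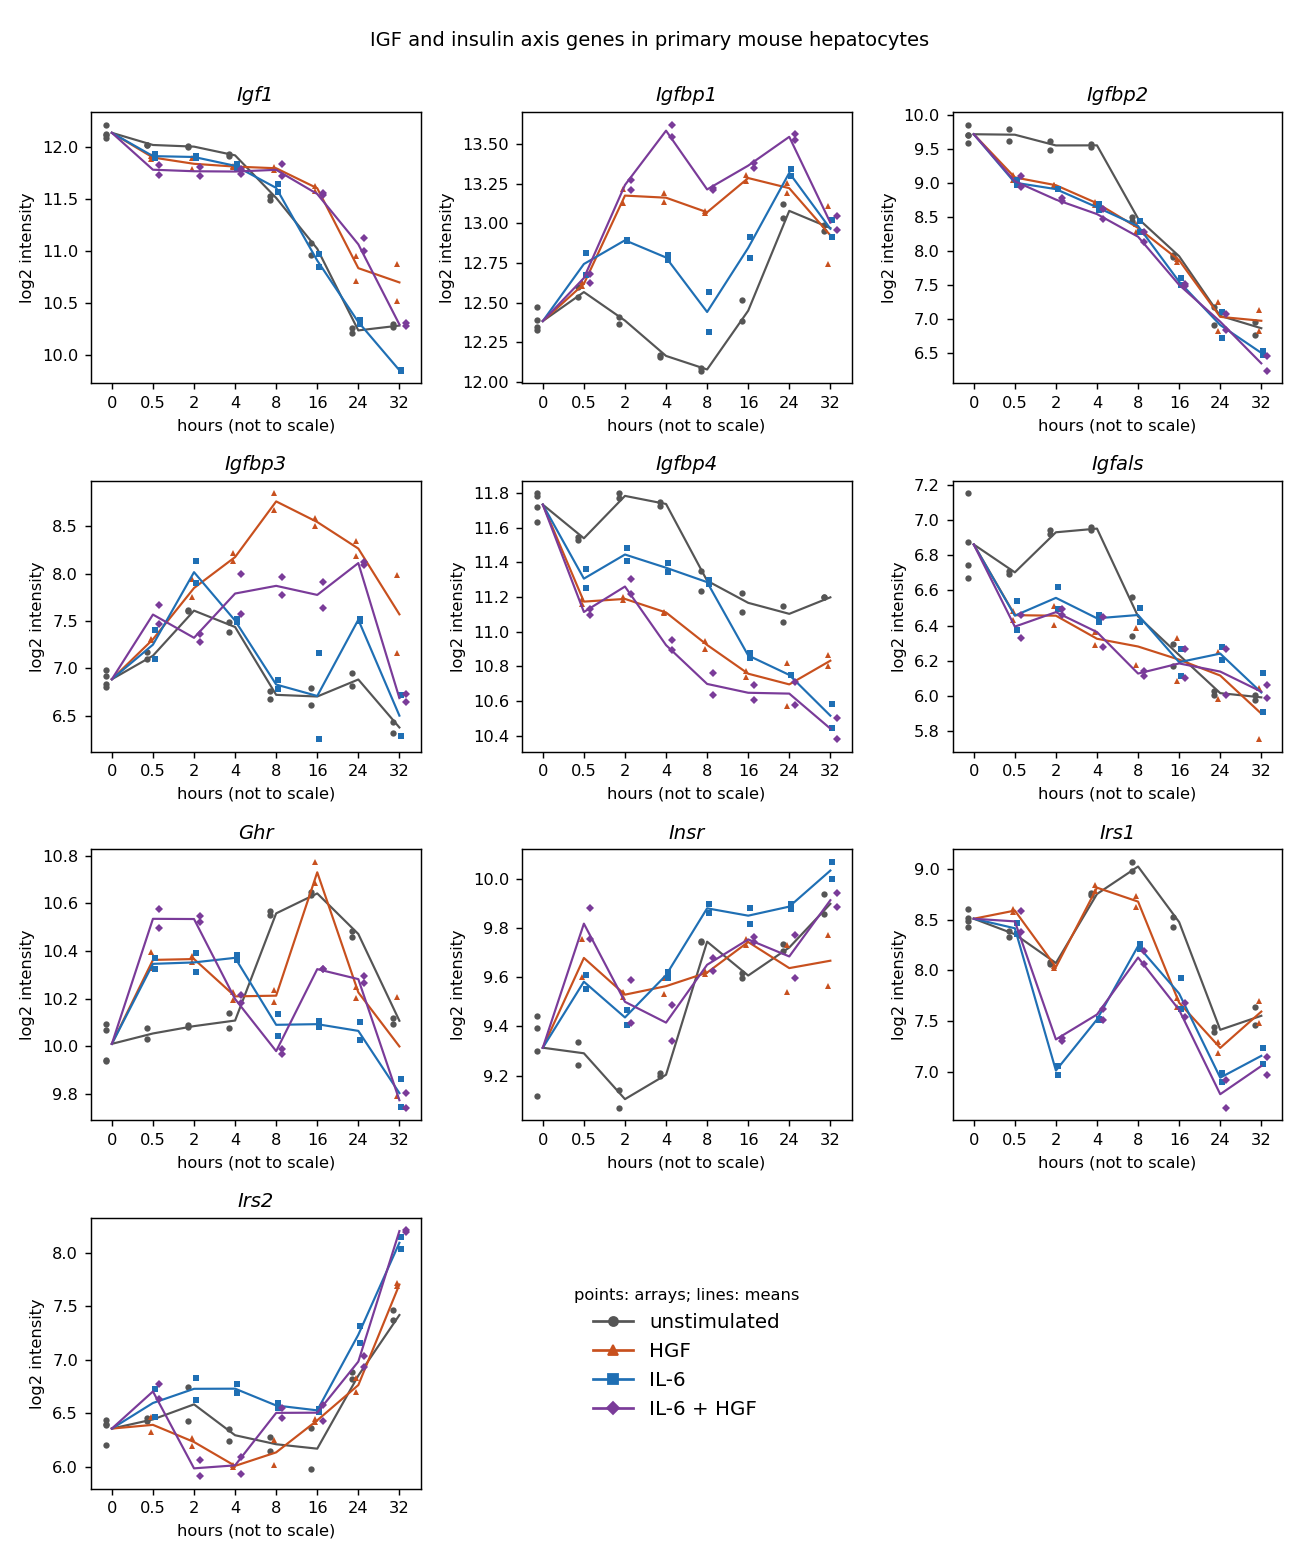
Log2 intensity (vertical axis) of the 10 genes by hour (horizontal axis, not to scale) in unstimulated, HGF, IL-6 and IL-6 with HGF cells; points are arrays and lines join group means, with the 0 h mean shared by all arms. Igf1 (brightest probe set) and Igfbp2 fell in every arm, Igfbp3 was highest under HGF at 8 h (8.85 and 8.67), and Irs1 was lower in both arms with IL-6 than in the other arms at 2 and 4 h.

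Each stimulus called all 10 members. Beside this, 62.6% of all genes were called for HGF, 55.1% for IL-6 and 68% for the combination, so that a call alone says little here. The members moved further than the typical gene: the median size of their largest difference was 0.63 under HGF against 0.33 over all genes, 0.63 against 0.29 under IL-6, and 0.82 against 0.36 under the combination. Over 8 to 32 h alone the gap was narrower under HGF, at 0.38 against 0.27, with 0.49 against 0.23 under IL-6 and 0.77 against 0.29 under the combination. HGF raised 4 (Igf1, Igfbp1, Igfbp3 and Insr) and lowered 6, where 29.8% of all genes rose and 32.8% fell. IL-6 raised 4 (Igfbp1, Igfbp3, Insr and Irs2) and lowered 6, where 23.4% rose and 31.7% fell. The combination raised 5 (Igf1, Igfbp1, Igfbp3, Insr and Irs2) and lowered 5, where 31.3% rose and 36.7% fell. Over 8 to 32 h alone, where arrays share a labelling class, 8 members were called for HGF (55.1% of all genes), 9 for IL-6 (42% of all genes) and 8 for the combination (57.2% of all genes). Igfals missed the test in all 3 of these, Igfbp2 in HGF and Insr in the combination. Under HGF 4 were then higher and 4 lower, with Insr now lower (-0.23 at 32 h, adjusted p over 8 to 32 h = 0.00877) and Irs2 higher (0.29 at 32 h, adjusted p = 0.0251).

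**Figure D2:**
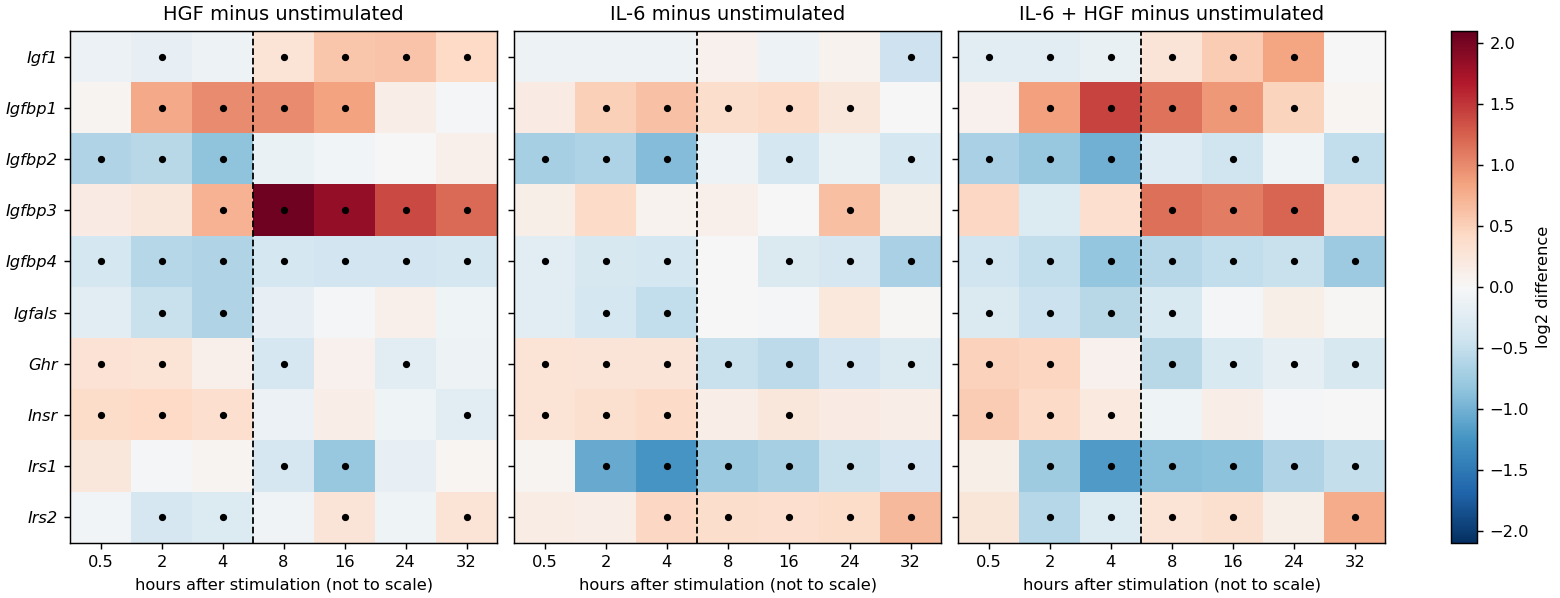
Log2 difference from unstimulated cells of the same hour (colour; red higher, blue lower) for the 10 genes (rows of each panel) at 7 hours (columns, not to scale) under HGF, IL-6 and both; black dots mark an adjusted p under 0.05 at that hour, and the dashed line parts the hours that cross labelling classes (left) from those that do not. Igfbp3 under HGF reached 2.04 at 8 h, and Irs1 under IL-6 reached -1.23 at 4 h.

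Igf1, the hormone of the axis, on its brightest probe set fell with time in culture and was higher in both arms with HGF from 8 to 24 h. Unstimulated arrays stood at 12.08, 12.12, 12.12 and 12.21 at 0 h, at 11.53 and 11.49 at 8 h, at 10.21 and 10.26 at 24 h and at 10.30 and 10.26 at 32 h. The change from 0 h was -1.90 at 24 h (SE 0.06, a 3.73-fold drop, adjusted p = 1.03e-33), and the part from 8 to 32 h, inside 1 labelling class, was -1.23 (SE 0.06) on that probe set. At 24 h the HGF arrays read 10.95 and 10.71, those with the combination 11.002 and 11.12, and those with IL-6 10.30 and 10.33. Both arms with HGF lay clear above unstimulated cells, whereas IL-6 arrays lay close to them (0.08, adjusted p at that hour = 0.427). HGF stood 0.58 above unstimulated cells at 16 h and 0.60 at 24 h (SE 0.06, adjusted p over all hours = 1.02e-14), and the combination 0.83 at 24 h (SE 0.06, adjusted p = 4.45e-16). IL-6 alone lowered Igf1 at 32 h, with arrays at 9.85 and 9.86 (-0.43, SE 0.06, adjusted p over all hours = 7.34e-06), and at that hour the combination, at 10.31 and 10.28, stood level with unstimulated cells (0.01, SE 0.06). At 32 h IL-6 differed from HGF by -0.84 (SE 0.06, adjusted p = 1.40e-17), and the combination by -0.40. The 2 HGF arrays of that hour differ by 0.35. Without HGF 32 h replicate 1 the last value was -0.23 (adjusted p = 5.52e-04).

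The 4 probe sets of Igf1 did not all tell this story, and both the late course in culture and the late HGF difference depended on which was read. In unstimulated cells a second set went down from 8.997 and 8.87 at 8 h to 8.65 and 8.69 at 32 h, as the brightest did. The remaining pair went up, one from 7.62 and 7.56 to 8.39 and 8.26 and the other from 7.84 and 7.81 to 8.57 and 8.66. At 8 and 16 h all 4 were higher under HGF, by 0.29 to 0.72 and by 0.58 to 1.07. At 24 h the brightest stood at 0.60 and another at 0.51, while the remaining pair lay at -0.06 and -0.11. At 32 h the 4 values were 0.41, 0.14, -0.54 and -0.48. The fall under IL-6 at 32 h was found by all 4, from -0.43 to -1.03, and the combination at 24 h was above unstimulated cells in all 4, by 0.38 to 1.15. At 0.5 to 4 h the brightest probe set lay below unstimulated cells and the other 3 above them under every stimulus (class step of the brightest -0.34). Across the 29 group means the other probe sets correlated with the brightest at 0.90, 0.70 and 0.69. Igf1 transcripts differ in their 3′ ends and leader exons, and which transcripts each probe set reads was not analysed here.

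**Figure D3:**
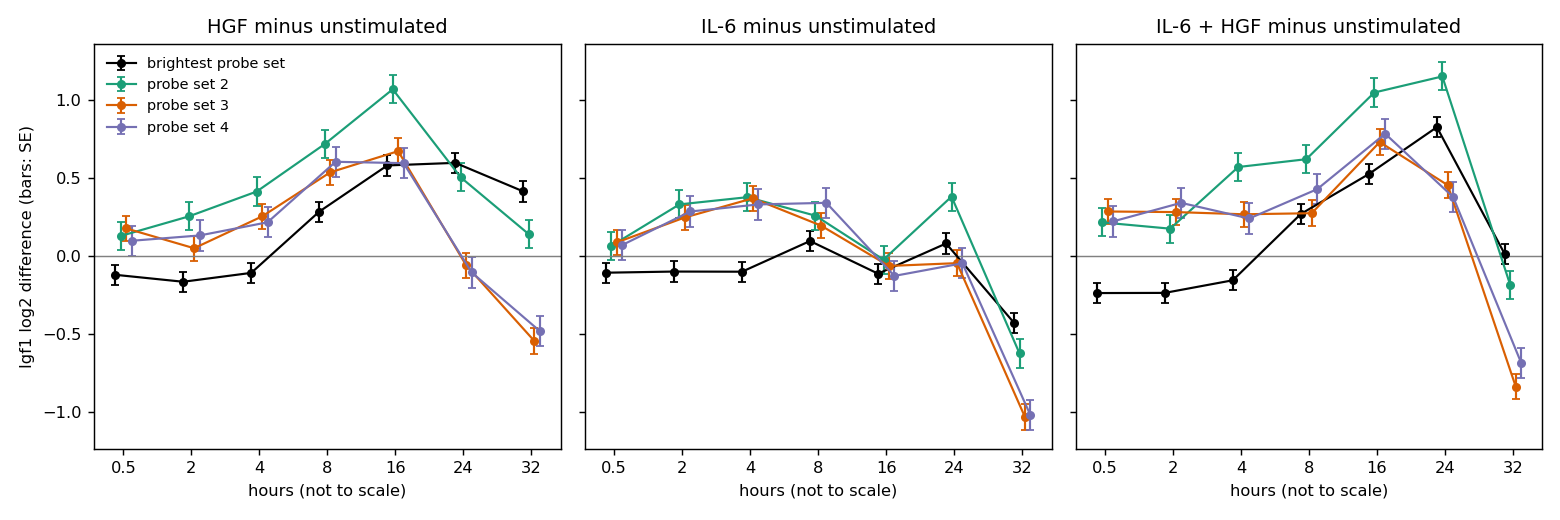
Log2 difference of Igf1 from unstimulated cells (vertical axis; bars are SE of the fit) by hour (horizontal axis, not to scale) for its 4 probe sets under HGF, IL-6 and both. All 4 lie above 0 at 8 and 16 h under HGF and part at 32 h (0.41, 0.14, -0.54 and -0.48), whereas all 4 lie below 0 at 32 h under IL-6.

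Igfbp1, the small carrier that insulin suppresses, rose under both stimuli and most under their combination. Unstimulated arrays drifted down from 12.32 to 12.47 at 0 h to 12.16 and 12.17 at 4 h, then up to 13.03 and 13.12 at 24 h. At 4 h HGF arrays read 13.14 and 13.19, IL-6 arrays 12.77 and 12.80, and those with the combination 13.62 and 13.55. The 4 conditions did not overlap at that hour. The differences from unstimulated cells were 1.00 for HGF (SE 0.07, adjusted p = 1.44e-23), 0.62 for IL-6 (adjusted p = 3.42e-14) and 1.42 for the combination (adjusted p = 1.44e-27), beside a class step of 0.18. Inside 1 labelling class, at 8 h, they were 0.99, 0.36 and 1.14, and at 16 h 0.84, 0.40 and 0.92. By 32 h the 4 conditions had met, at -0.05, 0.00 and 0.03 from unstimulated cells, which had themselves risen by 0.89 since 8 h (SE 0.07, adjusted p = 5.54e-16). IL-6 gave less than HGF at 2 to 16 h, most at 8 h (-0.63, SE 0.07, adjusted p over all hours = 1.10e-12).

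The window upstream of Igfbp1 holds the sequence CAAAACAA, known as the core of this promoter's insulin response element, which FOXO proteins bind. It is printed because 3 members of the axis carry this core near their start. The 250 bases before the RefSeq start of Igfbp1 (GRCm38.p6, chr11:7197537-7197786, plus strand; the gene spans chr11:7197787-7202546) read as follows, with the core in capitals at -108 to -101 from the start.
Igfbp1: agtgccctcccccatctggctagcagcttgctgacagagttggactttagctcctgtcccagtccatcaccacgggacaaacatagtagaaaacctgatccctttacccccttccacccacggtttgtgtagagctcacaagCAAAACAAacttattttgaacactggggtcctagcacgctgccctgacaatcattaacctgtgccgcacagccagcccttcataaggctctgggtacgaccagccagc

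Irs1 and Irs2 carry the same core on the opposite strand, TTGTTTTG, close to their starts. The stretches shown hold the core with flanks of equal length and are given in the direction of transcription. For Irs1 it is 58 bases at chr1:82291440-82291497 (minus strand) with the core at -33 to -26, and for Irs2 58 bases at chr8:11008935-11008992 (minus strand) with the core at -38 to -31, both of GRCm38.p6.
Irs1: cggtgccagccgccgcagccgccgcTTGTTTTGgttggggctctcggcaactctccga
Irs2: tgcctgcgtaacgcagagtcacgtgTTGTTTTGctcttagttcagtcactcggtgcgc
The core was found, on either strand, in 727 of 32851 RefSeq promoter windows of 250 bases (2.21%) and in 3 of 13 windows of the members, which cover 9 of the 10 genes. The FOXO core TGTTTAC was in 3.17% of all windows and in 1 of Igfals, and the STAT motif TTCNNNGAA in 7.02% of all windows and in 2 of Igfals. The motifs were chosen with the sequences in view, and a match is a description of these letters.

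Igfbp3, the main serum carrier of IGF-1, showed the largest difference of all members from unstimulated cells, under HGF at 8 h. At 8 h HGF arrays read 8.85 and 8.67 against 6.68 and 6.76 in unstimulated cells, 6.78 and 6.88 with IL-6, and 7.77 and 7.96 with the combination. HGF thus stood far above all other arrays of that hour, with the combination between. The difference under HGF was 2.04 (SE 0.17, a 4.12-fold rise, adjusted p = 2.52e-18), followed by 1.84, 1.38 and 1.19 at 16, 24 and 32 h. The combination gave 1.15, 1.07, 1.23 and 0.31 at those hours, and differed from HGF alone by -0.89 at 8 h (SE 0.17, adjusted p over all hours = 8.71e-08). The second probe set followed the first (r = 0.96 over 29 group means), at 1.67 for HGF and 1.08 for the combination at 8 h. IL-6 alone reached 0.63 at 24 h (adjusted p over all hours = 0.0262). That call was lost without unstimulated 24 h replicate 2 (adjusted p = 0.129), IL-6 2 h replicate 1 (0.067), IL-6 24 h replicate 1 (0.0812) or IL-6 24 h replicate 2 (0.091). IL-6 arrays also spread widely at 16 h, at 6.25 and 7.17, and HGF arrays at 32 h, at 7.98 and 7.16.

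In liver Igfbp3 is known as a gene of the cells between hepatocytes, so markers of those cells were read at the same hour. At 8 h under HGF 1 of 8 Kupffer cell and macrophage markers was higher (Adgre1, 0.33) and none lower. Of 8 sinusoidal endothelial markers 2 were lower (Kdr and Clec4g, -0.39 and -0.37), and of 7 stellate cell and fibroblast markers 1 was higher (Reln, 0.43) and 2 lower (Dcn and Acta2, -0.39 and -0.29). Of 4 cholangiocyte markers 2 were higher (Krt19 and Sox9, 0.52 and 0.49). Beside these calls at 1 hour, the test over 8 to 32 h called 55.1% of all genes for HGF. Linear intensities summed over each list had mean sums at 8 h of 691 in unstimulated and 655 in HGF arrays for Kupffer cells. For endothelial cells they were 468 and 447, for stellate cells 418 and 388, and for cholangiocytes 368 and 487. Over arrays of all hours, the Kupffer sums ranged from 488 to 934 in unstimulated and from 478 to 714 in HGF arrays. The ranges were 365 to 659 and 305 to 667 for endothelial cells, and 390 to 500.0 and 333 to 469 for stellate cells. For cholangiocytes they were 285 to 554 and 340 to 1076. The stellate markers Lrat and Rgs5, the cholangiocyte marker Cftr and the leukocyte markers Ptprc, Nkg7, S100a8 and S100a9 did not pass the intensity filter. The part of other cell types in the Igfbp3 values was not tested, and fewer cells of a type cannot be told apart from less RNA per cell.

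Igfbp2 and Igfbp4 are further small carriers, and Igfbp4 was lower in stimulated cells at most hours. For Igfbp2 this held up to 4 h, across labelling classes. At later hours it held for some in both arms with IL-6, but not under HGF alone. Igfbp4 was called lower at all 7 hours under HGF and under the combination and at 6 under IL-6. At 4 h HGF arrays stood at 11.11 and 11.11 against 11.75 and 11.72 in unstimulated cells (-0.63, SE 0.06, adjusted p over all hours = 6.30e-19; class step -0.28). At 32 h the values against 11.20 and 11.20 were 10.87 and 10.80 with HGF, 10.58 and 10.45 with IL-6, and 10.38 and 10.50 with the combination. No stimulated array overlapped the unstimulated pair at that hour, and the differences were -0.37, -0.68 and -0.76 (SE 0.06 each). All 6 probe sets of Igfbp4 moved together (r = 0.93 to 0.997 with the brightest).

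Igfbp2 fell further than any other member in unstimulated culture, from 9.58 to 9.86 at 0 h to 6.96 and 6.77 at 32 h (-2.85, SE 0.09, a 7.22-fold drop, adjusted p = 4.73e-32). Of this, -1.61 fell between 8 and 32 h. Stimulated arrays lay below unstimulated ones up to 4 h, with differences between -1.01 and -0.58, beside a class step of -0.75, the widest of the members. Inside 1 labelling class the differences were smaller: none of the 4 late hours passed under HGF, and at 32 h the values were -0.36 for IL-6 (adjusted p at that hour = 0.0108) and -0.52 for the combination (1.68e-04). IL-6 differed from HGF by -0.47 at 32 h (adjusted p over all hours = 0.00373), a call lost without HGF 32 h replicate 1 (-0.32, adjusted p = 0.0558).

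Igfals, which encodes the acid-labile subunit of the large serum complex, fell in culture and was called against unstimulated cells only when hours up to 4 h entered the test. Unstimulated arrays went from 6.67 to 7.15 at 0 h to 6.01 and 5.98 at 32 h (-0.87, SE 0.10, adjusted p = 4.99e-13). At 4 h the differences were -0.63, -0.51 and -0.59 for HGF, IL-6 and the combination, beside a class step of -0.41. Over 8 to 32 h the adjusted p was 0.575, 0.569 and 0.124, though the combination at 8 h passed at that single hour (-0.32, adjusted p = 0.0274), and between the 3 stimuli over all hours it was 0.311 to 0.88. Differences between stimuli reached at most 0.33 in size (SE 0.12). The probe set of Igfals had a mean of 6.36, and the 2 arrays of a group differed by up to 0.29.

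Ghr, the growth hormone receptor, was lower from 8 h on under IL-6 and under the combination. At 16 h IL-6 arrays read 10.10 and 10.08 against 10.65 and 10.64 in unstimulated cells, 10.69 and 10.78 with HGF and 10.32 and 10.33 with the combination. The IL-6 pair lay lowest and apart from all others. IL-6 gave -0.47, -0.55, -0.41 and -0.30 at 8, 16, 24 and 32 h (adjusted p over all hours = 1.49e-14), and at 16 h it differed from HGF by -0.64 (SE 0.06, adjusted p = 7.85e-10). All 3 Ghr probe sets were lower under IL-6 at each of these 4 hours. HGF gave -0.35 at 8 h and 0.09 at 16 h. At 24 h the mean was lower again under HGF, at 10.23 against 10.47 in unstimulated cells. There all 3 probe sets lay between -0.25 and -0.16 under HGF. At 0.5 and 2 h all stimuli stood 0.27 to 0.48 above unstimulated cells, beside a class step of 0.62, and the other probe sets did not all share this sign. Unstimulated Ghr peaked at 16 h (0.63 above 0 h, across labelling classes; class step 0.62), while another probe set lay at -0.29 there. From 8 to 32 h, inside 1 labelling class, unstimulated Ghr changed by -0.45 (SE 0.06) on its brightest probe set.

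Insr, the insulin receptor, differed from unstimulated cells by at most 0.24 in size once arrays of 1 labelling class were compared. At 0.5 to 4 h stimulated cells stood 0.21 to 0.53 above unstimulated ones, beside a class step of 0.35. From 8 h on, the values called at a single hour were 0.24 for IL-6 at 16 h and -0.23 for HGF at 32 h, where arrays read 9.77 and 9.56 against 9.86 and 9.94. IL-6 exceeded HGF by 0.37 at 32 h (SE 0.07, adjusted p over all hours = 1.45e-05). The other 2 probe sets of Insr had low means of 5.35 and 5.43 and correlated with the brightest at -0.33 and -0.58. The difference between the combination and HGF (0.25 at 32 h, adjusted p = 0.0375) was lost without any 1 of 7 arrays, with adjusted p from 0.0661 without the combination's 32 h replicate 1 to 0.212 without HGF 32 h replicate 2. The other 5 were replicate 1 of HGF and of the combination at 0.5 and 4 h and replicate 2 of the combination at 32 h.

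Irs1, the adaptor that couples the receptors of insulin and IGF-1 to PI3 kinase, showed the largest difference of the members under IL-6. At 2 h IL-6 arrays read 7.06 and 6.97 and those with the combination 7.30 and 7.34, against 8.08 and 8.06 in unstimulated cells and 8.02 and 8.05 with HGF. At 4 h the pairs were 7.51 and 7.52, 7.62 and 7.51, 8.76 and 8.74, and 8.78 and 8.84 in the same order. No array with IL-6 overlapped one without it at these hours. IL-6 differed from unstimulated cells by -1.06 at 2 h and -1.23 at 4 h (SE 0.09, a 2.35-fold drop, adjusted p over all hours = 1.07e-20; class step -0.11). Against HGF, inside 1 labelling class, it differed by -1.02 and -1.30 (SE 0.09, adjusted p over all hours = 1.03e-18). The difference under IL-6 then shrank to -0.78, -0.70, -0.47 and -0.39 at 8, 16, 24 and 32 h, and the combination gave -0.90, -0.86, -0.63 and -0.49. HGF alone lowered Irs1 at 8 h (-0.35) and 16 h (-0.79, arrays at 7.64 and 7.73 against 8.52 and 8.43) and not at 2 or 4 h (-0.04 and 0.06). Irs1 has 1 probe set under its own name, so no other could be set beside it.

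Irs2, the adaptor that FOXO proteins drive in liver, rose late in every arm: from 8 to 32 h by 1.21 in unstimulated cells, 1.57 with HGF, 1.52 with IL-6 and 1.70 with the combination (SE 0.11 each). At 32 h unstimulated arrays read 7.37 and 7.47, HGF arrays 7.69 and 7.72, IL-6 arrays 8.15 and 8.04, and those with the combination 8.21 and 8.20. Both arms with IL-6 were clear of the rest. IL-6 stood 0.68 above unstimulated cells at that hour (SE 0.11, adjusted p over all hours = 1.97e-08) and the combination 0.78 (adjusted p = 6.39e-10). At 2 h the combination went the other way, with arrays at 5.91 and 6.06 against 6.63 and 6.84 under IL-6 alone, a difference of -0.74 (SE 0.11, adjusted p over all hours = 2.62e-08). HGF alone stood at -0.35 from unstimulated cells at 2 h (class step -0.24), and at -0.19 without unstimulated 2 h replicate 2 (adjusted p = 0.00611).

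Between stimuli, IL-6 and HGF differed in 9 members, where 51.2% of all genes were called, and Igfals was the exception. Under IL-6 Igf1, Igfbp1, Igfbp2, Igfbp3, Ghr and Irs1 were lower than under HGF, and Igfbp4, Insr and Irs2 higher, each at the hour of its largest difference. Igfbp4 turned with time, from 0.36 at 8 h to -0.32 at 32 h (adjusted p at that hour = 4.27e-05). The combination differed from HGF in 9 members (41.6% of all genes), again without Igfals, and from IL-6 in 8 (44.1% of all genes), without Igfals and Igfbp2. Set against IL-6 alone, the combination was higher in Igf1 by 0.75 at 24 h, in Igfbp1 by 0.80 at 4 h and in Igfbp3 by 1.07 at 16 h. Without IL-6 16 h replicate 1 the last value was 0.61 (adjusted p = 4.61e-09). For Irs1 the same contrast peaked at 0.31 at 2 h (adjusted p = 0.0207) and was lost without IL-6 2 h replicate 2 (0.0877) or the combination's 2 h replicate 2 (0.0705).

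The interaction asks whether the combination differs from the sum of both single responses, and is the difference under the combination less the HGF difference and the IL-6 difference. It was called for 9 members (33.6% of all genes) over 7 hours and for 5 (19.7% of all genes) over 8 to 32 h. Those 5 were Igfbp1, Igfbp3, Igfbp4, Ghr and Irs1, and the call of Ghr over 7 hours was lost on its other probe sets (adjusted p = 0.117 and 0.779). Igfbp3 fell short of the sum, at -0.9996, -0.77, -0.78 and -1.01 from 8 to 32 h (SE 0.24, adjusted p over all hours = 2.66e-06), and at -0.60 at 32 h without HGF 32 h replicate 1. Irs1 at 16 h lay 0.63 above the sum (SE 0.12, adjusted p = 7.41e-04), at a time when HGF (-0.79), IL-6 (-0.70) and the combination (-0.86) gave like falls. Igf1 was the member not called (adjusted p = 0.752), with interaction values between -0.11 and 0.15, so that no departure from the sum was found with the brightest probe set. Its other 3 probe sets each were called, with 0.27, 0.56 and 0.53 at 24 h (adjusted p = 0.00452, 2.03e-07 and 1.96e-06). At 0.5 to 4 h an offset shared by all stimulated arrays enters the interaction once, with its sign turned.

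**Figure D4:**
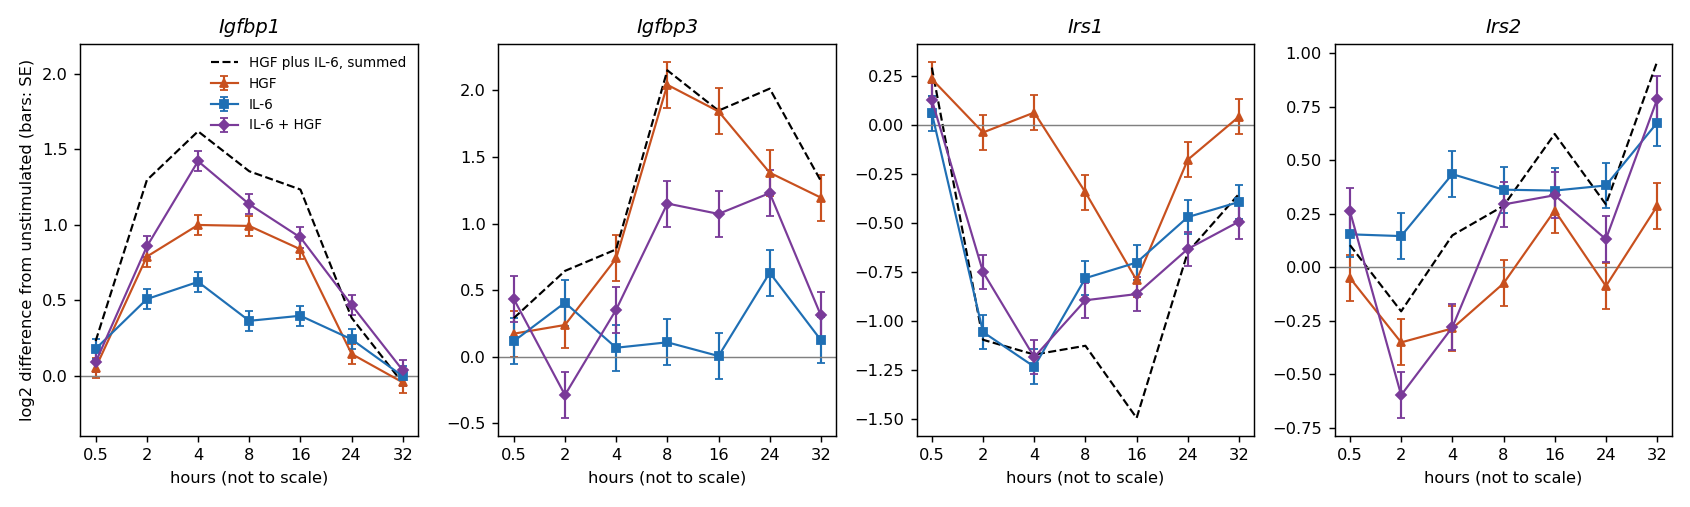
Log2 difference from unstimulated cells (vertical axes, which differ between panels; bars are SE of the fit) by hour (horizontal axis, not to scale) for Igfbp1, Igfbp3, Irs1 and Irs2 under HGF, IL-6 and both; the dashed line is the sum of the HGF and IL-6 differences. For Igfbp3 the combination (1.15 at 8 h) lies below HGF alone (2.04), and for Irs1 at 16 h it lies 0.63 above the sum.

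In unstimulated culture all 10 members changed against 0 h, where 75% of all genes did. At the hour of the largest difference, Igfbp1, Igfbp3, Ghr, Insr and Irs2 were higher (40.4% of all genes were). There Igf1, Igfbp2, Igfbp4, Igfals and Irs1 were lower (34.6% were). Irs1 turned with time, with means of 8.51 at 0 h, 8.07 at 2 h, 9.02 at 8 h and 7.42 at 24 h. Igfbp3 stood at 0.72 at 2 h and at -0.51 at 32 h (adjusted p over 8 to 32 h = 0.0261). Hours from 8 h on cross labelling classes in this comparison. The summed linear intensity of 8 hepatocyte markers, of which Ass1 did not pass the intensity filter, was lower late as well. It went from a mean of 76991 at 0 h to 41627 at 32 h in unstimulated cells. At 32 h it was 38190 with HGF, 51687 with IL-6 and 47016 with the combination, and its part in the members' changes was not tested. From 8 to 32 h, inside 1 class, 7 members changed (59.9% of all genes): Igfbp1 and Irs2 rose, and Igf1 (on its brightest probe set), Igfbp2, Igfals, Ghr and Irs1 fell. Over these hours Irs1 changed by -1.47 in unstimulated cells (SE 0.09), by -1.08 with HGF, by -1.08 with IL-6 and by -1.07 with the combination. Igfbp1 rose by 0.89 in unstimulated cells and by 0.53 with IL-6, and stood at -0.15 (adjusted p = 0.0607) with HGF and -0.21 with the combination. Igfbp4, not called in unstimulated cells (-0.10, adjusted p = 0.164), fell by 0.77 with IL-6.

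Across the 29 group means, which share arms, hours and labelling class, Igf1, Igfbp2, Igfbp4 and Igfals ran together (r = 0.62 to 0.92 between pairs), and Igf1 ran opposite to Irs2 (r = -0.77) and Insr (r = -0.70). Igfbp3 followed none of them closely, at most at 0.49 with Igfbp1. Over all genes tested, the courses most like Igfbp2 were those of Pemt (r = 0.99), Retsat (0.99) and Serpina6 (0.99), and those most like Igf1 were Pdcd6ip (0.97), Agpat5 (0.96) and Sult1e1 (0.96). Igfbp4 was most like Phpt1, Slc25a39 and Churc1 (0.94 each), and Igfals most like Rab1b, Baiap2 and Ddx41 (0.94 each). The closest to Igfbp1 were Cep170, Utp18 and Ptpn12 (0.88 each), to Igfbp3 Hmga2 (0.86), Eaf1 (0.84) and Rab31 (0.83), and to Irs1 Sap30l (0.89), Ciao1 (0.86) and E2f6 (0.85). Irs2 was nearest to Zmat3, Sec16a (0.92 each) and Galc (0.91), Insr to Cul1 (0.90), Cdk16 (0.89) and Msl3 (0.88), and Ghr, with the loosest fits, to Mmut, Sh3d19 and Rtraf (0.79 each).

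The wider pathway was read through 7 lists of 78 genes, of which 70 were tested. HGF called 54 of them (77.1%), IL-6 49 (70%) and the combination 55 (78.6%), beside 62.6%, 55.1% and 68% of all genes. Among further IGF genes, Igfbp6 and Igfbp7 were lower at 32 h under HGF (-1.31 and -1.01), IL-6 (-1.08 and -0.49) and the combination (-1.64 and -0.81). Igfbp5 was higher at 4 h (0.33, 0.53 and 0.53; class step 0.35), and the mannose 6-phosphate receptor Igf2r, which clears IGF-2, stood at 0.29 under HGF at 4 h (class step 0.47) and at -0.37 under IL-6 and -0.35 under the combination at 8 h. Insrr, an orphan receptor of the insulin receptor family, was called under HGF (0.36 at 0.5 h; class step -0.42). Igf2 and the receptor Igf1r were called under none of the 3 stimuli. Of 4 tested proteases of IGF carriers and their inhibitors, Pappa under the combination was the only call (-0.43 at 16 h, adjusted p = 0.0226), while Htra1, Stc1 and Stc2 did not pass. Htra1 under HGF had an adjusted p of 0.0513 over all hours, and over 8 to 32 h alone it passed (0.39 at 32 h, adjusted p = 0.0157). Both genes lay near the level of the intensity filter, 4.28 to 4.40 by array. Pappa at 16 h had a mean of 3.99 with the combination against 4.42 in unstimulated cells. Htra1 at 32 h had means of 4.81 with HGF and 4.43 without a stimulus.

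Of 6 tested genes of growth hormone receptor signalling, 5 were called under each stimulus and Sh2b1 under none. The share of all genes called was 62.6% for HGF, 55.1% for IL-6 and 68% for the combination. Cish, a feedback inhibitor of that receptor, was higher at 2 h under HGF (0.98), IL-6 (1.64) and the combination (2.02, SE 0.09, adjusted p = 6.63e-30; class step 0.38), and still by 1.23 at 8 h under the combination. Socs2, another such inhibitor, was lower at 32 h, with -1.67 for HGF (SE 0.08, adjusted p = 4.17e-25) and -0.83 for the combination. Under IL-6 its largest difference was 0.35 at 16 h, while its mean at 32 h was 9.84 against 10.12 in unstimulated cells. Jak2, the kinase of the receptor, was higher at 2 h (0.28, 0.49 and 0.48 for HGF, IL-6 and the combination; class step 0.34). The transcription factors Stat5a and Stat5b were lower under all 3, with values between -0.57 and -0.32.

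Adaptors and brakes of the insulin receptor (14 tested) split both ways: 5 rose and 6 fell under HGF, 7 and 3 under IL-6, and 6 and 6 under the combination. Over all genes tested, 29.8% rose and 32.8% fell under HGF, 23.4% and 31.7% under IL-6, and 31.3% and 36.7% under the combination. Trib3, a pseudokinase that binds AKT, stood 1.25 higher at 16 h under HGF (SE 0.11), 1.19 higher under the combination, and 0.84 higher at 4 h under IL-6. Its unstimulated mean went from 8.96 at 0 h to 11.71 at 32 h. At 32 h the stimulated means were 11.55 with HGF, 11.64 with IL-6 and 11.68 with the combination. Ceacam1, which promotes insulin clearance, was lower under all 3, with -0.84 at 24 h under HGF, -0.47 at 16 h under IL-6 and -0.85 at 16 h under the combination (SE 0.07, adjusted p = 1.46e-19). At 0.5 h Gab1 stood 0.40 higher under IL-6 and 0.66 higher under the combination (class step 0.39). Its means at that hour were 8.51 with HGF and 8.01 without a stimulus. At 8 h it stood at -0.58 under HGF, at -0.43 under the combination and at -0.22 under IL-6 (adjusted p over 8 to 32 h = 0.00146). The receptor-binding brakes Grb10 and Grb14, named after their values were seen, parted under HGF: Grb10 stood at 1.27 at 16 h and Grb14 at -1.09 at 24 h. Of 19 genes of PI3 kinase, AKT and mTOR, 8 rose and 8 fell under HGF, 5 and 8 under IL-6, and 8 and 7 under the combination. Deptor, an inhibitor of mTOR, was lower as well, with -0.73 at 8 h under HGF, -0.64 at 32 h under IL-6 and -1.07 at 32 h under the combination (SE 0.05, adjusted p = 6.96e-29). The regulatory subunit Pik3r1 stood at -1.10 at 24 h under HGF and at -0.76 at 32 h under the combination. Under IL-6 its largest difference was 0.72 at 4 h (class step 0.59), followed by 0.25 at 16 h. Its mean at 32 h under IL-6 was 10.66 against 10.87 in unstimulated cells. At 0.5 h its means were 9.74 with HGF, 9.80 with IL-6 and 10.02 with the combination, against 9.38 without a stimulus. Akt1s1, a further mTOR inhibitor, was lower early (-0.97, -1.01 and -1.18), beside a class step of -1.002, and its values at 8 to 32 h did not pass under HGF or the combination.

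FOXO factors and genes that insulin represses, apart from the members Igfbp1 and Irs2, went mostly one way. Of 12 tested, 1 was higher and 10 lower under HGF, none higher and 11 lower under IL-6, and 2 higher and 9 lower under the combination. Among all genes 29.8% were higher and 32.8% lower under HGF, 23.4% and 31.7% under IL-6, and 31.3% and 36.7% under the combination. The median of the largest differences of these 12 was -0.56, -0.51 and -0.69, against -0.08, -0.10 and -0.14 over all genes. Over 8 to 32 h alone 8, 9 and 8 of the 12 were lower and 2, none and 2 higher. In either direction 55.1%, 42% and 57.2% of all genes were called over those hours. Klf15, a fasting-induced factor of amino acid breakdown, stood at -1.52 under HGF, -1.51 under IL-6 and -2.22 under the combination at 2 h (class step -0.62), and at -1.15, -0.53 and -0.75 at 8 h. Ppargc1a, a coactivator of gluconeogenesis, stood at -0.81, -1.25 and -2.14 at 4 h (class step -0.53), and at -1.29 at 8 h under the combination. Pck1, the rate-limiting enzyme of gluconeogenesis (named after its values were seen), was lower, with -2.24 at 16 h under HGF (SE 0.27), -1.68 at 8 h under IL-6 and -2.16 at 8 h under the combination. The stress sensor Sesn3, likewise named afterwards, stood at -1.15, -0.54 and -1.04. The exceptions were Cited2 under HGF (0.46 at 2 h, class step 0.036), Ccng2 under the combination (0.19 at 0.5 h, and -0.16 at 24 h), and Pdk4. At 4 h Pdk4 was lower under HGF and IL-6 (-0.92 and -0.86, class step -0.93) and under the combination (6.83 against 7.97 in unstimulated cells). At 24 h it was higher under HGF (0.69) and under the combination (1.30, SE 0.09, adjusted p = 7.09e-20). Under IL-6 it stood at -0.35 at 16 h, and at 7.59 against 7.25 in unstimulated cells at 24 h. G6pc, the last enzyme of glucose release, was called under none of the 3 stimuli (adjusted p of 0.597, 0.0836 and 0.125). Igfbp1 and Irs2, not among these 12, went another way. Igfbp1 stood 1.00, 0.62 and 1.42 higher at 4 h under HGF, IL-6 and the combination (class step 0.18). Irs2 stood 0.29, 0.68 and 0.78 higher at 32 h. In the first 4 h Irs2 reached -0.35 under HGF and -0.60 under the combination (class step -0.24).

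**Figure D5:**
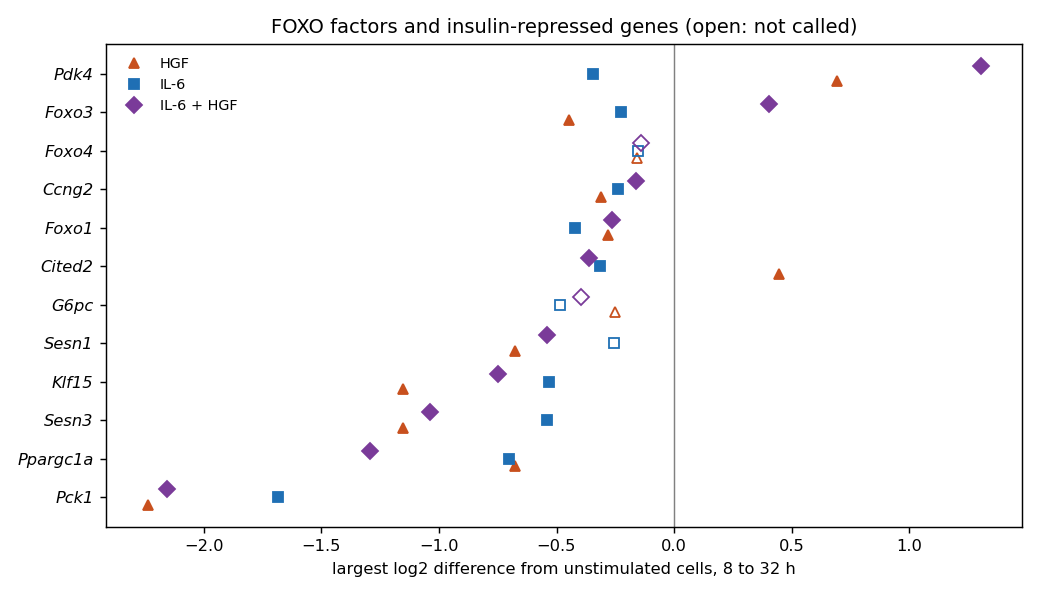
Largest log2 difference from unstimulated cells at 8 to 32 h (horizontal axis) for 12 FOXO factors and insulin-repressed genes under HGF, IL-6 and both; filled symbols passed the F-test over 8 to 32 h and open ones did not. Most symbols lie below 0, down to -2.24 for Pck1 under HGF, and Pdk4 under the combination lies at 1.30.

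Genes that insulin induces in liver (8 tested) rose in 6 cases and fell in none under HGF, against 4 and 2 under IL-6 and 5 and 2 under the combination. Of all genes, 29.8% rose and 32.8% fell under HGF, 23.4% and 31.7% under IL-6, and 31.3% and 36.7% under the combination. Over 8 to 32 h alone 4 of the 8 were higher and 1 lower under HGF, 4 and 2 under IL-6, and 3 and 2 under the combination. In either direction 55.1%, 42% and 57.2% of all genes were called over those hours. Egr1, an immediate early factor, stood 2.26, 1.61 and 3.23 higher at 2 h (class step 0.96), and 1.56 higher at 8 h under HGF. Insig1, which restrains sterol synthesis, stood 0.97 higher under HGF and 0.80 under the combination at 2 h (class step 0.34), and 0.47 higher under IL-6 at 24 h. Srebf1, the lipogenic factor, was higher by 0.30, 0.27 and 0.42 in the first 4 h (class step 0.18), and under HGF it stood at -0.17 at 24 h (adjusted p over 8 to 32 h = 3.03e-04). Thrsp and Elovl6, both lipogenic, were lower under IL-6 (-0.29 and -0.37) and the combination (-0.47 and -0.46).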

How the data were processed

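The authors deposited 1 table with 45101 probe sets measured on 60 Affymetrix arrays. Its deposited values were taken as log2 intensities from their range, since no source used here states the scale. RNA was labelled with biotin by a one-cycle assay, per the labels' protocols. Summarisation and scaling are not given in the sources used here. Medians of the arrays lie between 4.88 and 4.97, so no further scaling was applied. Triplicates are mentioned in the series text, while 2 arrays per group (4 at 0 h) were analysed here. None of the 1770 array pairs held identical values, and precision is limited by how few arrays each group has.

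The array's probe table gives 34958 probe sets 1 symbol, 932 several and 9211 none, and the first kind was used. A gene was kept if its brightest probe set lay above the array's 40th percentile on 2 arrays or more. A model with a mean for each of 29 groups was fitted by limma 3.58.1 under R 4.3.3, with trended variances and 31 residual degrees of freedom. The 8 comparisons used moderated F-tests over 7 hours, p-values were adjusted by Benjamini and Hochberg's method over all genes tested (threshold 0.05), and those at single hours within the hour. The pipeline was tested on simulated data. Promoter windows come from RefSeq (GRCm38.p6) by symbol, with 9 of 10 members matched.

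The members, pathway lists and tests were chosen with earlier results of these data known. Named are the 10 members, from each list the 3 genes with the smallest adjusted p under the combination and those needed for counts of 5 or fewer, and per member the 3 genes with the highest correlation of group means. Alternatives covered normalization, filters, probe sets, arrays in the fit, the variance model, ranges of hours, a 2-fold minimum and leaving out each array.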

Additional observations from a re-analysis of the deposited data

Results flagged for a closer look

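The response to HGF differed with and without IL-6, by the interaction in limma's F-test over 7 hours, for 9 of 10 members (33.6% of all genes), and for 5 members (19.7% of all genes) over 8 to 32 h. The values set the combination against the sum of both single responses. Over 8 to 32 h they were -1.01 for Igfbp3 at 32 h, 0.46 for Ghr at 24 h and 0.63 for Irs1 at 16 h. Igfbp1 stood at -0.32 at 16 h and Igfbp4 at 0.30 at 24 h (adjusted p over 8 to 32 h = 0.0232 and 3.41e-04). At 0.5 to 4 h, where the unstimulated arrays belong to another labelling class, the interaction values were -0.44 for Igfbp1 at 2 h, 0.75 for Igfbp2 at 4 h (class step -0.75), 0.41 for Igfbp4 at 2 h (class step -0.28), 0.55 for Igfals at 4 h (class step -0.41), -0.55 for Insr at 4 h (class step 0.35) and -0.43 for Irs2 at 4 h (class step -0.24). The Ghr call was lost on both other probe sets (0.39, adjusted p = 0.117, and 0.29, adjusted p = 0.779) and with the mean over probe sets (0.38, adjusted p = 0.0628), and the Insr call with that mean (-0.11, adjusted p = 0.864). The part of the labelling class in the early values was not tested. The call for Igfals (adjusted p = 0.0409) was lost in 19 of 60 fits that left out 1 array, with adjusted p up to 0.115 without the combination's 4 h replicate 1. The call for Irs2 (adjusted p = 0.0302) was lost in 8 of 60, up to 0.0698 without the same array. For Igfbp3 the value was -0.60 without HGF 32 h replicate 1.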

How the results depend on the processing

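The counts of called members moved under 3 settings, and the cause was not tested. With a 2-fold minimum at the hour of the largest difference they were 1 for HGF, 1 for IL-6, 4 for the combination, 2 for IL-6 against HGF, 1 for the combination against HGF, 1 for it against IL-6, 1 for the interaction and 4 for culture. With 0.5 to 4 h alone they were 5 for IL-6 against HGF, 5 for the combination against HGF and 5 for culture, and with 8 to 32 h alone 5 for the interaction. Leaving out 1 array gave 10 to 10 members for HGF, 9 to 10 for IL-6, 10 to 10 for the combination, 8 to 9 for IL-6 against HGF, 8 to 9 for the combination against HGF, 7 to 8 for it against IL-6, 7 to 9 for the interaction and 10 to 10 for culture. Quantile normalization, the filters, the variance models, the mean over probe sets, and fits on the compared arms alone (which the interaction does not have, as it uses all arms) left each count within 1.5 times. Single calls lost there were Igfals in the interaction (adjusted p = 0.0616 with quantile normalization, 0.05 without a filter, 0.0507 without a variance trend), Igfbp3 under IL-6 (0.0702 without a variance trend, 0.0897 with robust variance), Irs1 in the combination against IL-6 (0.0901 on the compared arms) and Insr in the combination against HGF (0.0524 with quantile normalization, 0.0764 on the compared arms and 0.0799 without a variance trend). The mean over probe sets ended 8 calls: Insr under HGF (adjusted p = 0.0584), under IL-6 (0.21), in IL-6 against HGF (0.184), in the combination against HGF (0.537) and against IL-6 (0.0931) and in the interaction (0.864), and Ghr in the combination against IL-6 (0.0986) and in the interaction (0.0628). It added Igf1 to the interaction (0.38, adjusted p = 2.33e-05).

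Directions turned with the hours, where the largest difference lies at another hour. With 8 to 32 h alone this held for Insr under HGF (-0.23), Irs2 under HGF (0.29), Igfals under IL-6 (0.22), Insr and Irs1 in the combination against IL-6 (-0.23 and -0.16), Igfbp2 and Igfals in the interaction (-0.26 and -0.20) and Igfbp3 in culture (-0.51). With 0.5 to 4 h alone it held under HGF for Igf1 (-0.17), Ghr (0.31) and Irs1 (0.23), under IL-6 for Ghr (0.29), and under the combination for Igf1 (-0.24), Ghr (0.48) and Irs2 (-0.60). Between stimuli it held for Igf1, Ghr and Insr in IL-6 against HGF (0.066, 0.16 and -0.10), for Ghr and Insr in the combination against HGF (0.17 and -0.15) and for Igf1 and Igfbp3 in the combination against IL-6 (-0.14 and -0.69). It also held for Ghr in the interaction (-0.27) and for Igfbp1 and Insr in culture (-0.22 and -0.21).

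Other probe sets turned the direction of Igf1 under HGF at 24 h (-0.060 and -0.11). For Insr they gave -0.095 and -0.077 under HGF, -0.040 under IL-6, -0.10 under the combination, -0.0038 in IL-6 against HGF, -0.10 in the combination against HGF, -0.014 against IL-6, 0.052 and 0.17 in the interaction and -0.16 and -0.43 in culture. For Ghr they gave -0.035 in the combination against IL-6 and -0.29 in culture. The mean over probe sets gave -0.00097 for Insr in culture. The values of each probe set by hour and the changes from 8 to 32 h were added after the data had been seen.

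With the replicate number as a replicate block, all 88 results (80 of single members and 8 counts) kept direction and call, such as Igf1 under HGF (0.60, adjusted p = 7.20e-14 in limma's F-test). The arrays share only a number: over 378 pairs of groups, the deviations of arrays with the same number from their group means had correlations of -0.27 to 0.25, with a median of -4.35e-04.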
